A study of Mus musculus with 31 samples.

Results

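Imprinted genes are transcribed from only 1 parental copy, the choice being set by DNA methylation laid down in sperm or egg. A list of 42 genes with known imprinting in the mouse was followed, 20 expressed from the paternal copy and 22 from the maternal copy. Of these, 38 were in the deposited counts, 28 in the liver table and 38 in the table of eWAT, the epididymal white fat of the abdomen, out of 16929 genes in either table. The members were chosen by name and not by a filter on their values, with earlier results of these data known.

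The RNA came from male F1 mice of the C57BL/6 strain, wild type, aged 24 weeks, in 3 arms named LF, HF and HFLF. All arms share the feeding of the F1 animals, which was chow up to 6 weeks and LFD during the 18 weeks that followed. The diet tag of a sample (LFD, HFD or HFLFD) was therefore taken as the arm of the paternal line, which rests on the title of the series and is not spelled out by the labels. The liver libraries numbered 4 in LF, 5 in HF and 6 in HFLF, and held 9225373 to 17268415 counts each. Those of eWAT numbered 4, 6 and 6 and held 9278083 to 27230205. No label says that animals came from separate litters, so p-values measure the spread between these samples. The mice are of 1 inbred strain and the counts are totals per gene, so they hold no information on which allele a transcript came from.

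Imprinted genes sit in clusters, each under an imprinting control region that carries methylation on 1 parental copy. Many of them act on growth, on the placenta and on fat tissue: paternally expressed genes such as Igf2, Peg3 and Plagl1 and maternally expressed genes such as Igf2r, Grb10 and Cdkn1c are the textbook examples. Plagl1 encodes a zinc finger transcription factor, Peg3 a large zinc finger protein, Nnat a small membrane protein of the endoplasmic reticulum, and Meg3, Rian and Mirg are noncoding RNAs of the Dlk1 cluster that host microRNAs and small nucleolar RNAs. For 11 members (Slc22a3, Slc22a18, Nap1l4, Cd81, Dcn, Trappc9, Copg2, Commd1, Ube3a, Blcap and Ppp1r9a) imprinting is known mainly from placenta or brain, and for Inpp5f, H13 and Gnas it depends on the transcript.

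The promoters of 4 members on which the results below turn are printed here, because Plagl1 gave the largest difference between the tissues, Nnat the highest level in eWAT, and Peg3 and Zim1 the highest Pearson correlation of a neighbouring pair (by Spearman's rho Meg3 and Rian stood higher). Each window runs from 250 bases before to 50 after the transcript start and is the RefSeq sequence of GRCm38.p6. The capitals mark TGCCGC, or GCGGCA where it lies on the other strand, the hexamer whose methylated form is bound by ZFP57, a zinc finger protein that protects imprints. The windows are chr10:13090582-13090881 on the plus strand for Plagl1, chr2:157559828-157560127 on the plus strand for Nnat, chr7:6730370-6730669 on the minus strand for Peg3 and chr7:6696383-6696682 on the minus strand for Zim1.
Plagl1: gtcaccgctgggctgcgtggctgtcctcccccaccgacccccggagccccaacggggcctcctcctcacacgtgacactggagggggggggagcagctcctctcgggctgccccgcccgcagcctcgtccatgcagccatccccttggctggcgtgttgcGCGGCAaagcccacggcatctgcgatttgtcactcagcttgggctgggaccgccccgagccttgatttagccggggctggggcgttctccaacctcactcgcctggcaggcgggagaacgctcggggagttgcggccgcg
Nnat: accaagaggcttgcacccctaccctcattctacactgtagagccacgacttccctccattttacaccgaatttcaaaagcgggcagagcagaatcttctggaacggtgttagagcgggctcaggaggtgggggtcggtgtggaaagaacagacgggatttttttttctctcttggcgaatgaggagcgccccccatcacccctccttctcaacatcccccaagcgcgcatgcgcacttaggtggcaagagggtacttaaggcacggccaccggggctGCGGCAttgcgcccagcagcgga
Peg3: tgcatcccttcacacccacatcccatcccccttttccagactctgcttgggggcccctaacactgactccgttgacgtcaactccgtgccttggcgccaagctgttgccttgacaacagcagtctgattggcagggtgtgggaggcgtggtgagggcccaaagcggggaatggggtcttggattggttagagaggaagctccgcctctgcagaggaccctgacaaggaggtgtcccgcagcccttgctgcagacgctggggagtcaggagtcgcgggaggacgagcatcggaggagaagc
Zim1: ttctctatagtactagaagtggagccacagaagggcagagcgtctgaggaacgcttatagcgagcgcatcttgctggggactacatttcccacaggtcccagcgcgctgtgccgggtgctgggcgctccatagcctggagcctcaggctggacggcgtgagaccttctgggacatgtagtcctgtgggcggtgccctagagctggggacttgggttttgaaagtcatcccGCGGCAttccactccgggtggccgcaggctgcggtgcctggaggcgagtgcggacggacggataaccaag
The Plagl1, Nnat and Zim1 windows each held 1 copy of the hexamer and the Peg3 window held 0. The windows counted 26 CpG in Plagl1, 17 in Nnat, 13 in Peg3 and 20 in Zim1. Over both strands, 12 of the 33 members with a RefSeq promoter (36.4%) held it in at least 1 window, against 13.1% of the 27025 genes in that table. By window the shares were 25.5% of the members' 47 windows and 11.6% of all 32851. Snrpn and Snurf, both among the 12, share 1 of these windows, and counted once it leaves 11 of 46 (23.9%). The hexamer itself holds a CpG, and the shares were not matched for the CpG content of the windows. A match describes the letters of the window and shows no bound protein. Dcn, Trappc9, Peg10, Impact, Sgce, H19, Nap1l4, Cdkn1c and Peg13 had no entry.

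Snurf, Phlda2, Usp29 and Magel2 were in neither table. Igf2, H19, Airn, Dlk1, Rian, Mirg, Nnat, Zim1, Zdbf2 and Rasgrf1 were in the eWAT table and not in the liver table, so 17 paternally and 21 maternally expressed genes were measured in eWAT against 11 and 17 in liver. A minimum on CPM (counts scaled to library size), whose value is not stated, was set by the authors in each tissue, so a gene outside a table has no value here. Levels between genes are compared as CPM per kb of exon, with the exons of GENCODE M21, and levels between libraries as CPM scaled within the tissue.

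In eWAT, Nnat (chr2:157560078-157562522 of GRCm38, inside an intron of Blcap) stood first at 1235 CPM per kb. It ran from 1378 CPM in LF 3 to 3004 CPM in LF 5 over 16 libraries, with a median of 2404 CPM. Cd81, a tetraspanin of the cell surface, followed at 169 CPM per kb, Dcn, the matrix proteoglycan decorin, at 167, Blcap, a small membrane protein, at 56.4, and the histone chaperone Nap1l4 at 46.8. Cd81 and Dcn are adjacent, and their gap per kb is small beside their spread, which was 1.72-fold and 2.54-fold from lowest to highest library. In CPM, before division by exon length, Cd81 ran from 331 to 571 and Dcn from 605 to 1534 over the same libraries. At the low end, Zdbf2 stood at 0.0485 CPM per kb, Igf2 at 0.144, Mirg at 0.171 and Kcnq1ot1 at 0.198.

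In liver, Cd81 stood first at 90.9 CPM per kb, with 232 to 299 CPM over 15 libraries. Slc22a18, a membrane transporter of the Kcnq1 cluster, followed at 55.5 CPM per kb and ran from 83.2 to 110 CPM. Dcn stood at 19.2, Nap1l4 at 17.7 and H13, a signal peptide peptidase, at 16.5 CPM per kb. Kcnq1ot1 at 0.0820, Meg3 at 0.0850, Plagl1 at 0.113, Ndn at 0.221 and Peg10 at 0.240 CPM per kb were the lowest. The 9 highest genes in liver are all maternally expressed, among them 7 of the 11 whose imprinting is known mainly from placenta or brain. The strand setting of the counting is not known, so the levels of genes whose exons overlap an antisense gene are uncertain. Examples are Kcnq1ot1 and Kcnq1, Copg2 and Mest, Ube3a and Snhg14, Gnas and Nespas, and Cdkn1c and Gm44732. Airn and Igf2r overlap on opposite strands but share no exon bases. Mcts2, Nnat and Peg13 lie inside introns of H13, Blcap and Trappc9, where unspliced reads of the host could be counted.

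**Figure D1:**
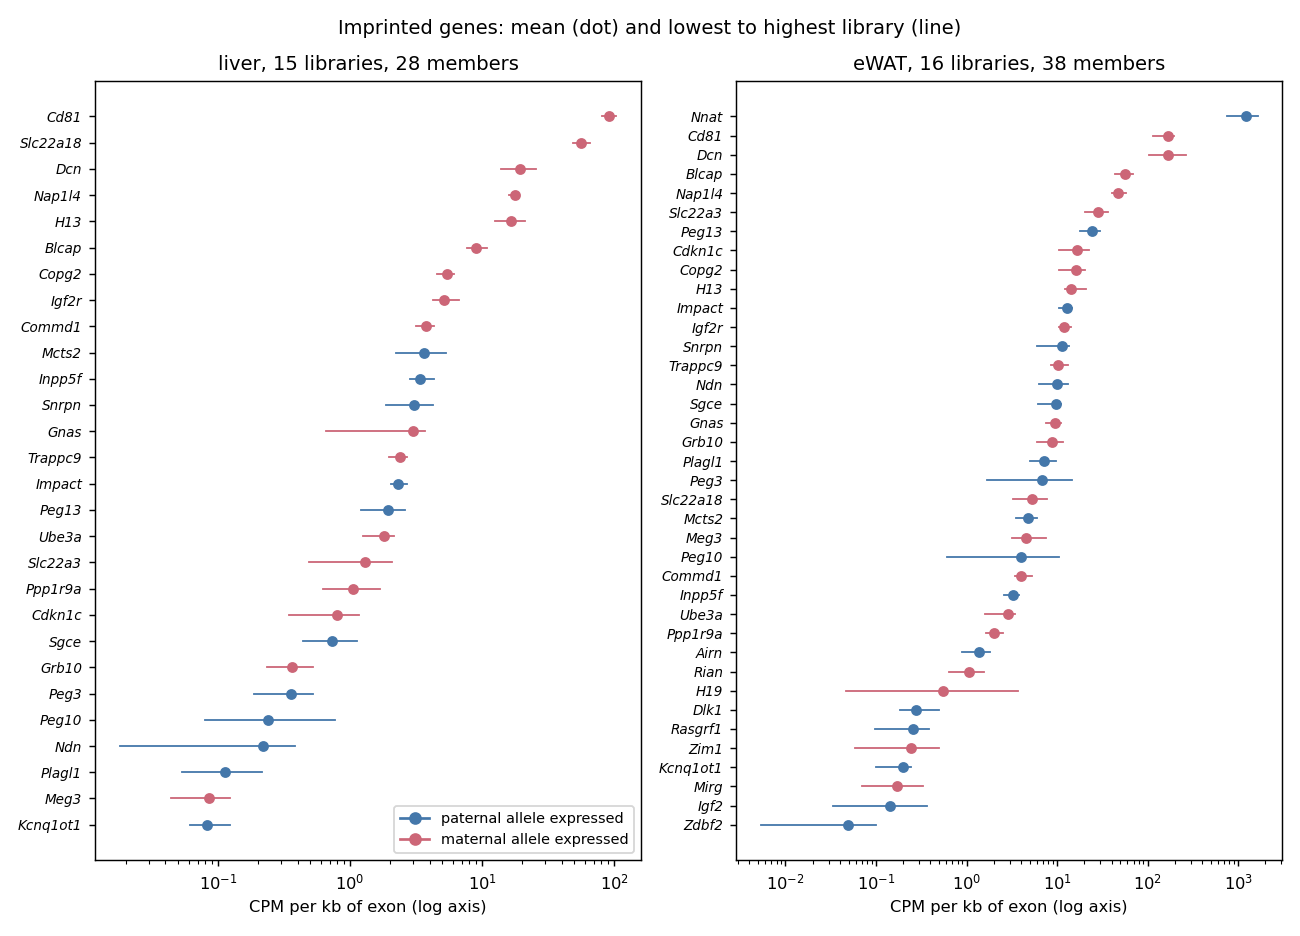
Mean CPM per kb of exon of each imprinted gene (dot) with the lowest and highest library (line), on a log axis, in liver (left, 15 libraries, 28 genes) and eWAT (right, 16 libraries, 38 genes), blue for paternally and red for maternally expressed genes. Nnat leads in eWAT at 1235 CPM per kb and Cd81 in liver at 90.9, and the longest lines belong to H19, Zdbf2 and Peg10 in eWAT and to Ndn, Peg10 and Gnas in liver.

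The tissues differed widely in these genes, and most members were lower in liver. In 1 edgeR fit over all 31 libraries and the 12735 genes of both tables, 21 of the 28 members were lower in liver at an adjusted p under 0.05 and 5 were higher. Over all genes the shares were 42.9% lower and 42.6% higher. With library totals as the only scaling, 24 members were lower and 2 higher, and the shares of all genes were 71.8% lower and 19.5% higher. The median log2 difference of the members was -1.25, against 0.00493 over all genes. The 11 paternally expressed genes had a median of -2.93 and the 17 maternally expressed ones of -0.83. The maternal group holds all 11 genes imprinted mainly in placenta or brain, and H13 and Gnas, imprinted by transcript, as is Inpp5f of the paternal group. Its remaining genes stood at -4.98 (Meg3), -3.83 (Grb10), -3.61 (Cdkn1c) and -0.49 (Igf2r). These medians therefore do not set parental alleles against each other in these tissues. Ube3a, a ubiquitin ligase (log2 difference 0.11 ± 0.087 SE), and Ppp1r9a, an actin-binding protein (-0.18 ± 0.10), did not pass the test. The following CPM values are scaled over both tissues together, and are therefore not those of the single tissues.

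Plagl1 (chr10:13060504-13131694) gave the largest difference: 0.565 to 2.30 CPM over the liver libraries (median 1.16) and 32.1 to 61.4 over those of eWAT (median 45.6), a log2 difference of -5.33 ± 0.11 with an adjusted p of 1.2e-27 in edgeR. Meg3 (chr12:109541001-109571726) ran from 1.08 to 3.05 CPM over the liver libraries and from 45.95 to 111 over the others, a log2 difference of -4.98 ± 0.14. Ndn, the growth-restraining protein necdin, ran from 0.0904 to 1.93 CPM in the one and from 18.9 to 39.02 in the other (-4.79 ± 0.17). Grb10, an adaptor that dampens insulin and IGF receptor signalling, ran from 2.91 to 6.39 and from 44.7 to 86.1 CPM (-3.83 ± 0.11). Slc22a3, an organic cation transporter beside Igf2r, ran from 2.99 to 12.7 and from 75.9 to 134 CPM (-3.73 ± 0.14). In all of these the highest liver library lay below the lowest of eWAT. How many of all genes were apart in this way was not counted.

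Cdkn1c, the cell cycle inhibitor p57, Peg3 and Peg10, the last derived from a retrotransposon, were lower in liver by similar amounts, at -3.61 ± 0.15, -3.45 ± 0.23 and -3.31 ± 0.33. Sgce and Peg13, which lie beside Peg10 and inside an intron of Trappc9, stood at -2.96 ± 0.11 and -2.93 ± 0.092. Igf2r, the receptor that clears IGF2, was lower in liver by far less, at -0.49 ± 0.061. In the bulk of each tissue, fewer cells of a type and less RNA per cell cannot be told apart.

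The gene highest in liver was Slc22a18 (chr7:143473736-143499334), with liver values of 113 to 151 CPM against 4.58 to 10.4, a log2 difference of 4.12 ± 0.092. H13 followed at 0.94 ± 0.060, with 152 to 255 CPM against 89.3 to 146. Inpp5f, a phosphoinositide phosphatase, stood at 0.80 ± 0.064, with 32.3 to 48.9 and 17.005 to 26.2 CPM. Commd1, a copper-handling protein, stood at 0.65 ± 0.062, with 25.4 to 34.9 and 15.9 to 25.7 CPM, and Mcts2, a retrogene inside an H13 intron, at 0.33 ± 0.11, with 2.77 to 6.63 and 2.68 to 4.45 CPM. On this joint scale Slc22a18, H13 and Inpp5f did not overlap between the tissues, and Commd1 and Mcts2 did. Here too the share over all genes was not counted. Scaling by library totals alone moved the median of all genes to -0.73, and on that scale Commd1 stood at -0.085, Mcts2 at -0.40, Inpp5f at 0.062 and H13 at 0.20, so that the direction of these small differences is set relative to the median gene.

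**Figure D2:**
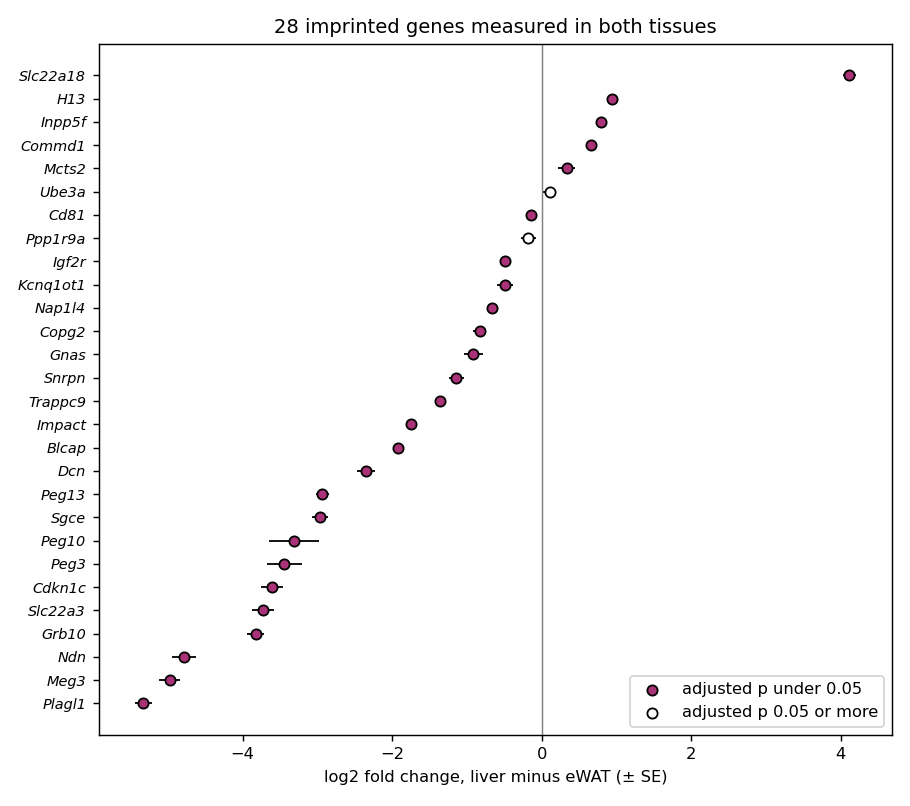
Log2 fold change of liver minus eWAT with its SE for the 28 imprinted genes in both tables, from the joint edgeR fit, filled where the adjusted p is under 0.05. Values run from -5.33 for Plagl1 to 4.12 for Slc22a18, and 22 of the 28 lie below 0.

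The labelled tissues were checked on marker genes. In liver the 7 hepatocyte markers summed to 78606 to 113124 CPM. Of the adipocyte markers, Adipoq, Plin1 and Lep were not in the liver table, and the 3 measured (Fabp4, Cidec and Lipe) summed to 32.5 to 66.1 CPM. In eWAT the 6 adipocyte markers summed to 26399 to 39691 CPM. The 7 hepatocyte markers were all measured in eWAT too and summed to 1353 to 6776 CPM, highest in LF 3. The eWAT libraries LF 3, LF 6, HF 2 and HF 6 held testis transcripts at over 10 CPM (5 of 5 markers measured, 0.0675 to 23.2 CPM in LF, 0.0874 to 116 in HF, 0.199 to 1.21 in HFLF). B cell transcripts were highest in LF 2 and HF 5 (6 of 6 markers, 230.05 to 3912 CPM in LF, 259 to 2296 in HF, 358 to 711 in HFLF). LF 3 also held Col1a1, a collagen of fibroblasts, at 2166 CPM against 309 to 627 in the other 15 eWAT libraries. The mesothelium markers (6 of 6 measured), of the cell layer that covers the fat pad, summed to 111 to 231 CPM in LF, 45.2 to 537 in HF and 6.64 to 340 in HFLF, lowest in HFLF 6 and HF 6 and highest in HF 3 and HF 5. Where leaving out the libraries high in testis or B cell transcripts moved an eWAT value of a named member by over 1.5 times, that value is given. Leaving out the testis-marked libraries kept only LF 2 and LF 5 in LF, and LF 2 is marked by B cells. Leaving out the B cell-marked ones kept LF 3, LF 5 and LF 6.

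Between the arms of the paternal line, 0 imprinted genes passed an adjusted p of 0.05 in any of the 6 comparisons, by edgeR, DESeq2 or limma voom. Over all genes edgeR called 0% in each comparison as well, voom called 0 genes, and DESeq2 called 0 to 69. At an unadjusted edgeR p under 0.05, the members counted 1 of 28 in each of the 3 liver comparisons, and the shares over all genes were 3.6% for HF against LF, 5.47% for HFLF against LF and 1.86% for HFLF against HF. In eWAT they counted 3, 3 and 2 of 38, against 7.04%, 10.8% and 9.3% over all genes. None of these member counts exceeded the background share by more than 1 gene. The median log2 change of the members in these comparisons was -0.02, 0.01 and 0.04 in liver and 0.08, 0.11 and 0.03 in eWAT, against medians over all genes between -0.00423 and 0.00937. In eWAT 28 of 38 members lay higher in HFLF than in LF, where 52.1% of all genes did, 15 of the 17 paternally expressed ones (median 0.23) and 13 of the 21 maternally expressed ones (median 0.063). Here too the maternal group holds the genes imprinted mainly in placenta or brain. The HF and HFLF comparisons with LF share the LF libraries. For HFLF against LF the count was 23 of 38 with a median of 0.07 without LF 2, 25 with 0.049 without LF 3, 29 with 0.20 without LF 5 and 28 with 0.16 without LF 6. Without the libraries high in testis transcripts it was 24 of 38 with a median of 0.072, and without those high in B cell transcripts 23 with 0.07. For HF against LF the median was 0.18 without LF 5, 0.053 without LF 2, 0.044 without the testis-marked libraries and 0.042 without the B cell-marked ones.

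**Figure D3:**
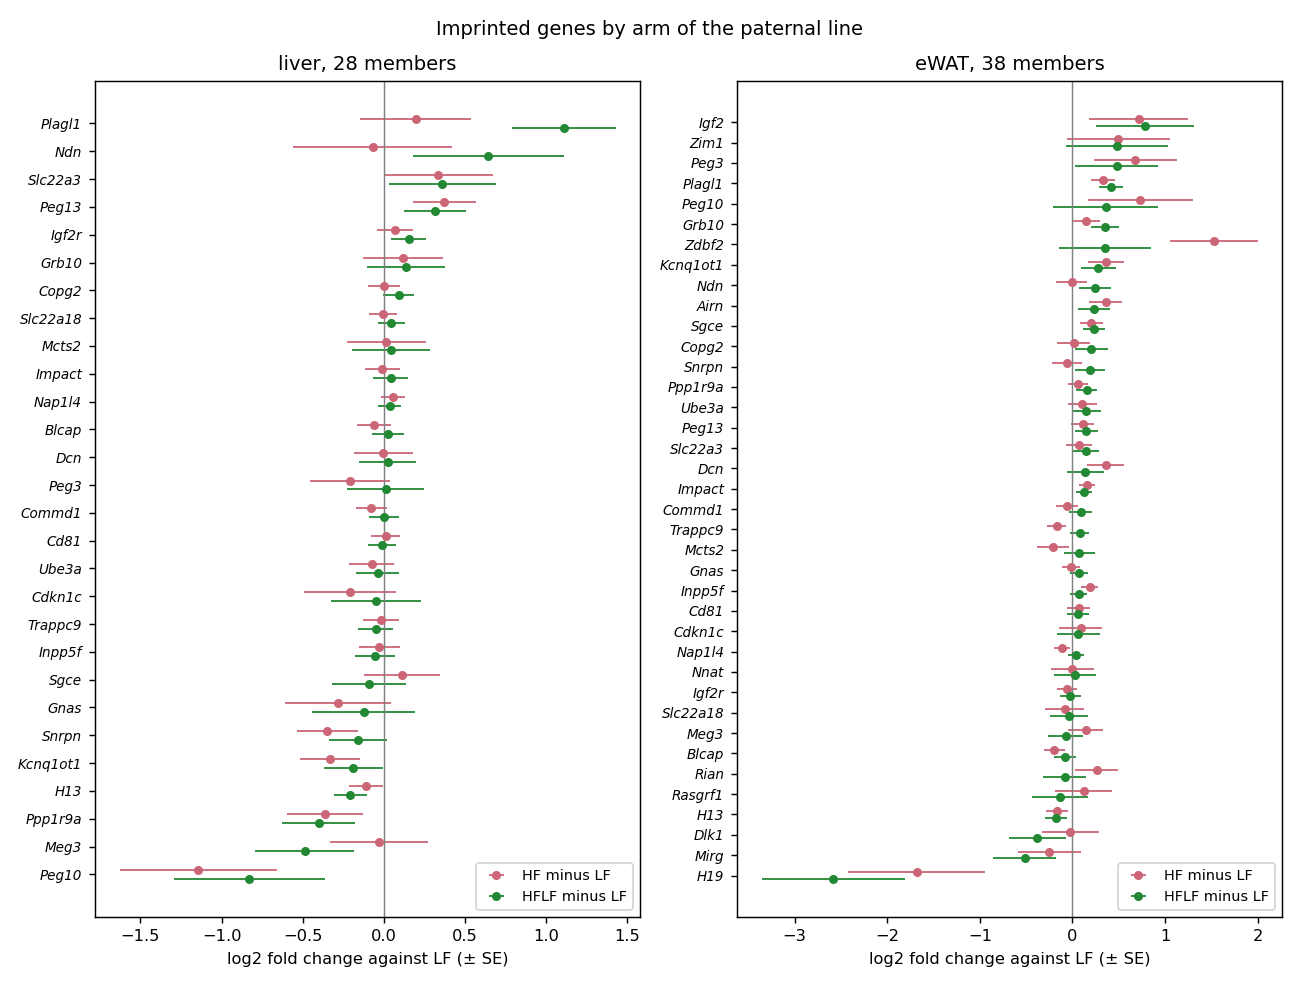
Log2 fold change against LF with its SE for the imprinted genes in liver (left, 28 genes) and eWAT (right, 38 genes), red for HF minus LF and green for HFLF minus LF, ordered by the green values. None passed an adjusted p of 0.05, Plagl1 lies first in liver at 1.11 ± 0.32 and H19 last in eWAT at -2.58 ± 0.77.

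In liver, Plagl1 was measured on few reads, 5 to 21 per library. The LF libraries stood at 0.663, 0.526, 0.687 and 0.444 CPM, the HF libraries at 0.857, 0.514, 1.02, 0.418 and 0.512, and the 6 HFLF libraries from 0.869 to 1.69 with a median of 1.24. All HFLF libraries lay above all LF libraries, whereas HF overlapped both. The log2 difference was 1.11 ± 0.32 for HFLF against LF (unadjusted p of 0.0027, adjusted p of 0.725 in edgeR, 0.271 to 0.999 over the alternatives) and 0.91 ± 0.29 for HFLF against HF (adjusted p of 1.00). Plagl1 was the only member of 28 whose LF and HFLF libraries did not overlap in liver, where 0.943% of all genes showed this. No liver member was apart between HF and LF or between HFLF and HF, against 1.34% and 0.19% of all genes.

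Peg10 (chr6:4747306-4760517) was the liver member with the smallest p for HF against LF. Its LF libraries stood at 1.33, 5.16, 0.937 and 2.73 CPM, those of HF at 1.07, 0.808, 0.661, 1.46 and 1.54, and those of HFLF from 0.527 to 2.39 with a median of 1.43. The arms overlapped, and LF 2 was the highest of the 15 libraries. The log2 difference was -1.14 ± 0.49 for HF and -0.83 ± 0.47 for HFLF against LF, and without LF 2 these were -0.60 and -0.28. The adjusted edgeR p was 1.00 and 0.868.

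The other liver members of this rank moved less. Peg13, a noncoding RNA, stood at 5.71, 8.11, 7.68 and 9.01 CPM in LF, at 9.49, 8.89, 9.14, 9.67 and 12.2 in HF and at 5.68 to 12.3 (median 9.64) in HFLF. Its log2 difference was 0.37 ± 0.19 for HF and 0.32 ± 0.19 for HFLF against LF (0.25 and 0.20 without LF 1), and only 1 of the 4 LF libraries lay among those of HF. Snrpn, a splicing protein whose exons are partly shared with Snurf, stood at 9.09, 7.26, 7.74 and 5.58 CPM in LF, at 4.07, 6.54, 5.65, 6.68 and 6.21 in HF and at 4.44 to 8.16 (median 6.73) in HFLF, a log2 difference of -0.35 ± 0.19 for HF against LF and 0.19 ± 0.17 for HFLF against HF (0.085 without HF 1 and 0.12 without HFLF 1). Kcnq1ot1, the noncoding RNA that silences its cluster on the paternal copy, stood at 7.56, 5.68, 9.68 and 11.4 CPM in LF and at 6.07, 6.54, 6.31, 6.47 and 9.07 in HF (-0.33 ± 0.19, or -0.17 without LF 6).

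Ppp1r9a stood at 24.5, 23.1, 15.4 and 11.5 CPM in LF, at 14.6, 17.3, 14.7, 12.7 and 12.9 in HF and at 9.08 to 21.1 (median 13.3) in HFLF, with log2 differences of -0.36 ± 0.23 and -0.40 ± 0.23 against LF. Without LF 1 these were -0.20 and -0.23, and without LF 6 the former was -0.54. LF 1 and LF 2 were the highest of all liver libraries for Ppp1r9a, and LF 6 lay within the HFLF range. H13 stood at 187, 142, 165 and 141 CPM in LF and at 111 to 153 (median 143) in HFLF, a log2 difference of -0.21 ± 0.10, or -0.12 without LF 1.

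For HFLF against HF, Ndn stood at 0.642, 0.661, 0.902, 0.626 and 0.366 CPM in HF and at 0.583 to 1.41 (median 1.16) in HFLF (log2 difference 0.71 ± 0.44). Meg3 stood at 0.928, 1.25, 2.22, 2.09 and 2.05 CPM in HF and at 0.791 to 1.89 (median 1.11) in HFLF (-0.46 ± 0.29). Copg2, a coat protein subunit of transport vesicles, stood at 27.1, 23.2, 31.1, 27.6 and 26.5 CPM in HF and at 25.3 to 30.8 (median 29.9) in HFLF (0.09 ± 0.088, or 0.042 without HF 2 and 0.15 without HF 3). All 3 overlapped between the arms, and no adjusted p was under 1.00.

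In eWAT, Plagl1 stood at 40.3, 39.4, 57.2 and 44.4 CPM in LF 2, LF 3, LF 5 and LF 6, at 51.1 to 64.8 (median 55.3) in HF and at 50.1 to 75.9 (median 60.2) in HFLF. Of the LF libraries, 3 lay below every HF and HFLF library and LF 5 lay among them. The log2 difference was 0.33 ± 0.13 for HF and 0.41 ± 0.13 for HFLF against LF, with adjusted p of 0.689 and 0.282 in edgeR. The 3 low LF libraries are those with testis or B cell transcripts. Without the testis-marked libraries, which leaves LF 2 and LF 5 in LF, the differences were 0.26 and 0.30. Without those marked by B cells they were 0.29 and 0.36. The direction was that of liver for HFLF against LF, and the difference between the tissues (log2 0.70 ± 0.31, liver minus eWAT) had an adjusted p of 0.799 in edgeR.

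H19, a noncoding RNA that hosts miR-675 and lies 72.622 kb from Igf2, was spread most widely of the eWAT members. LF 2, LF 3, LF 5 and LF 6 stood at 2.77, 9.12, 0.383 and 0.427 CPM, HF at 0.114 to 1.83 (median 0.795) and HFLF at 0.268 to 1.08 (median 0.478). LF 2 and LF 3 lay above every other library, and LF 5 and LF 6 lay within the range of HFLF. The log2 difference was -1.68 ± 0.74 for HF and -2.58 ± 0.77 for HFLF against LF (adjusted p of 0.689 and 0.282 in edgeR). Without LF 3, the library high in Col1a1, these were -0.33 and -1.24, and without all testis-marked libraries -0.33 and -1.63. In a fit of LF and HFLF alone H19 fell under the expression filter and has no value. Igf2, the growth factor of the same cluster, stood at 0.54, 0.424, 0.638 and 0.513 CPM in LF, at 0.455 to 2.10 in HF and at 0.191 to 1.57 in HFLF.

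Zdbf2 (chr1:63273265-63314576), a zinc finger gene, was low in eWAT, with 1 to 21 reads per library. LF stood at 0.0675, 0.53, 0.51 and 0.256 CPM, HF at 0.459 to 1.27 (median 1.03) and HFLF at 0.164 to 0.682 (median 0.426). All HF libraries but HF 1 lay above every LF and HFLF library. The log2 difference was 1.52 ± 0.47 for HF against LF and -1.17 ± 0.39 for HFLF against HF, with adjusted p of 0.689 and 0.433 in edgeR. Leaving out 1 library at a time kept the former between 1.16 and 1.86 and the latter between -1.35 and -1.03. In a fit of HF and HFLF alone Zdbf2 fell under the expression filter, so the latter has no value there. Without the libraries marked by testis transcripts the former was 1.66, and without those marked by B cells 1.15.

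**Figure D4:**
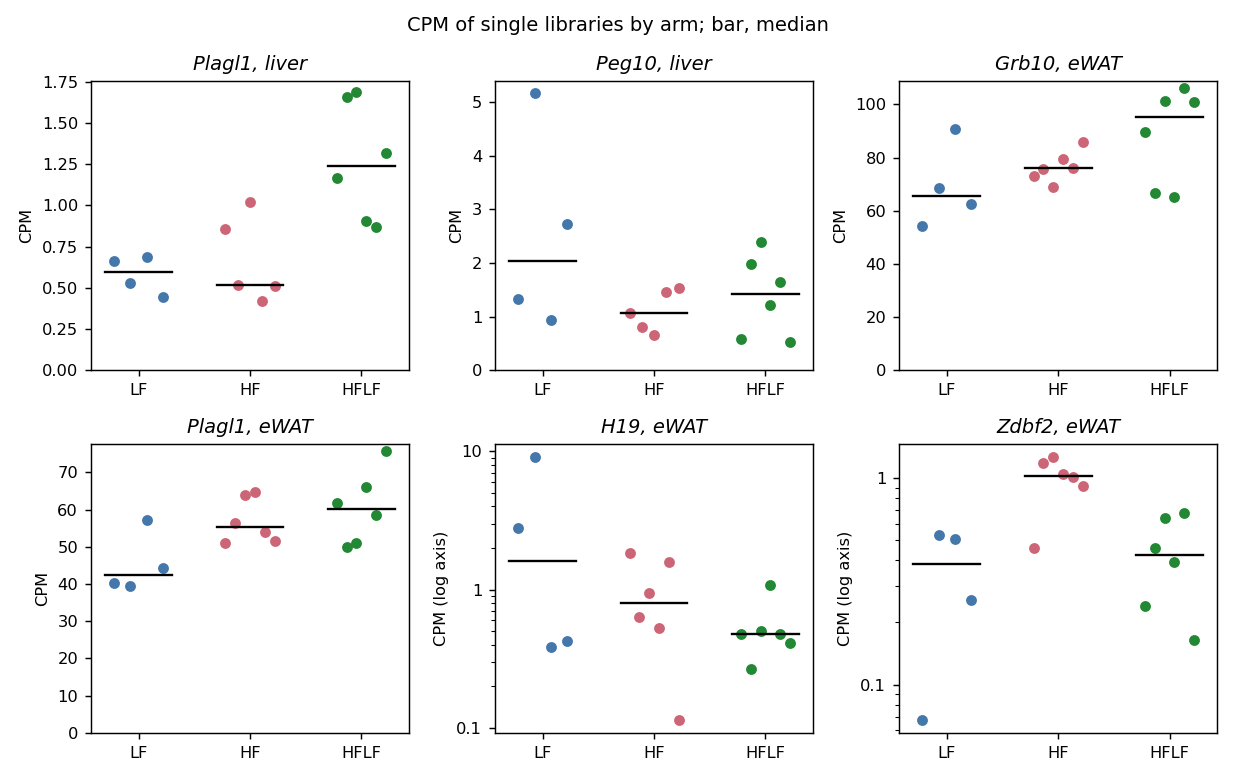
CPM of single libraries (points) with the median of the arm (bar) for Plagl1 and Peg10 in liver and Grb10, Plagl1, H19 and Zdbf2 in eWAT, with a log axis for H19 and Zdbf2. In liver all Plagl1 values of HFLF (0.869 to 1.69) lie above those of LF (0.444 to 0.687), and the H19 value of LF 3 stands at 9.12.

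Grb10 stood at 54.1, 68.6, 90.8 and 62.6 CPM in the LF libraries of eWAT, at 69.0 to 85.7 (median 75.9) in HF and at 65.3 to 106 (median 95.1) in HFLF. The arms overlapped, and the log2 difference for HFLF against LF was 0.35 ± 0.15 (adjusted p of 0.415 in edgeR), or 0.27 without the testis-marked and 0.25 without the B cell-marked libraries. Sgce, the sarcoglycan epsilon of the muscle and nerve membrane, stood at 92.3, 65.4, 103 and 104 CPM in LF and at 84.3 to 118 (median 110) in HFLF, a log2 difference of 0.23 ± 0.12, or 0.10 without LF 3 and 0.12 without the testis-marked libraries. H13 stood at 137, 116, 120 and 186 CPM in LF and at 109 to 148 (median 123) in HFLF (-0.18 ± 0.11, or -0.01 without LF 6 and -0.071 without the testis-marked libraries).

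For HF against LF in eWAT, Airn, the antisense RNA that silences Igf2r, stood at 3.92, 3.92, 4.47 and 4.36 CPM in LF and at 4.44 to 6.46 (median 5.22) in HF, a log2 difference of 0.36 ± 0.17. Of the HF libraries, 5 lay above every LF library. Inpp5f stood at 28.6, 24.9, 26.2 and 21.6 CPM in LF and at 25.02 to 31.7 (median 29.2) in HF (0.18 ± 0.095). Its difference was 0.12 without LF 6, 0.060 without the testis-marked libraries and 0.28 without the B cell-marked ones. Kcnq1ot1 was the only member of 38 whose HF and LF libraries were apart in eWAT, at 19.1 to 22.8 against 18.4, 15.4, 18.8 and 9.32 CPM, where 0.926% of all genes showed this. It was singled out after its values were seen. No eWAT member was apart between HFLF and LF or between HFLF and HF, against 1.23% and 0.757% of all genes.

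For HFLF against HF in eWAT, Trappc9, a subunit of a vesicle tethering complex, stood at 67.4 to 79.1 CPM (median 73.8) in HF and at 72.0 to 104 (median 85.9) in HFLF, a log2 difference of 0.25 ± 0.091. Nap1l4 stood at 125.4 to 152 (median 134) and 141 to 166 CPM (median 150.4), a log2 difference of 0.15 ± 0.080, or 0.080 with library totals only. Mcts2 stood at 3.28 to 4.64 (median 3.88) and 3.73 to 5.42 CPM (median 4.84), a log2 difference of 0.28 ± 0.15, and Snrpn at 18.2 to 26.6 (median 22.9) and 23.3 to 29.2 CPM (median 27.3), a log2 difference of 0.25 ± 0.14. The HFLF median was the higher in each of these genes, and the ranges overlapped in each and the smallest adjusted edgeR p was 0.458.

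The remaining members of eWAT had no place in this ranking, among them Peg3, Peg10 and Zim1, which varied widely within arms. Peg3 (chr7:6703892-6730431) stood at 54.2, 22.7, 68.8 and 120 CPM in LF, at 50.4 to 193 (median 93.9) in HF and at 41.4 to 164 (median 88.3) in HFLF. Peg10 stood at 20.8, 4.03, 17.4 and 36.7 CPM in LF, at 13.97 to 70.7 (median 28.02) in HF and at 9.43 to 50.7 (median 21.4) in HFLF. Both were lowest in LF 3 and highest in HF 2, as was Mest, a paternally expressed gene of fat cells from the list of other imprinted genes, at 26.4 and 582 CPM. LF 3 and HF 2 are both among the libraries with testis transcripts, and their part in this spread was not tested.

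Differences between the tissues in the effect of the arm were tested in the joint fit. For HF against LF, 0 of 28 members passed (0% of all genes), and 2 had an unadjusted edgeR p under 0.05, against 4.88% of all genes. These were Peg10 (liver minus eWAT, log2 -1.87 ± 0.85) and Kcnq1ot1 (-0.70 ± 0.28), which lay lower in HF than in LF in liver and higher in eWAT. For HFLF against LF, 0 of 28 passed and 2 had an unadjusted p under 0.05, against 5.84% of all genes, namely Plagl1 and Ppp1r9a (-0.55 ± 0.26). The smallest adjusted p was 0.956 for HF and 0.799 for HFLF in edgeR.

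Whether neighbours in a cluster vary together across animals was asked with each arm's mean removed from log2 CPM. The 24 pairs set for this also held some on different chromosomes, namely Commd1 with Nap1l4 and Plagl1 with Igf2, H19 and Cdkn1c. Both genes were measured for 10 pairs in liver and 19 in eWAT, and p-values came from 100000 permutations of libraries within arms, adjusted over these 29. Of the pairs, 2 passed by Pearson's r, both in eWAT. Peg3 and the maternally expressed zinc finger gene Zim1, which lie 7.441 kb apart, had r = 0.80 (permutation p of 0.00072, adjusted 0.0122) and rho = 0.76 (permutation p of 0.00299, adjusted 0.0434). Zim1 ran from 0.476 to 4.02 CPM, and without the 2 libraries farthest from the median of Peg3 r was 0.90. Meg3 and Rian, 32.213 kb apart on the maternal copy, had r = 0.79 (permutation p of 0.00084, adjusted 0.0122) and rho = 0.81 (permutation p of 0.00109, adjusted 0.0316), and r = 0.72 without the 2 farthest libraries, where its adjusted permutation p was 0.0851. Without the 6 libraries marked by testis or B cell transcripts r was 0.87 for Peg3 and Zim1 and 0.84 for Meg3 and Rian, with adjusted permutation p of 0.159 and 0.0435. In that setting LF 5 is the only LF library left, and it carries no weight once the arm mean is removed. Meg3 and Rian both stood low in HF 6 (56.9 and 13.7 CPM) and HFLF 6 (57.9 and 12.5), where the mesothelium markers summed to 45.2 and 6.64 CPM, and were highest in HF 5 (135 and 28.8), where these summed to 514. Other libraries did not follow this order. Rian was lowest in LF 6 (11.6 CPM), where Meg3 stood at 75.2 and the markers summed to 111. In HFLF 3, where the markers summed to 340, Meg3 and Rian stood at 81.6 and 17.5 CPM. The part of those cells in the relation was not tested.

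Rian and Mirg followed at r = 0.64 (rho = 0.55, adjusted permutation p of 0.124 and 0.283), and r fell to 0.26 without the 2 farthest libraries, so this relation rests on those. With the libraries marked by testis or B cell transcripts left out, r was 0.023. The lowest value in eWAT was that of Peg10 and Ppp1r9a, neighbours of opposite parental expression, at r = -0.69 and rho = -0.71 (permutation p of 0.00865 and 0.00561, adjusted 0.0836 and 0.0542), and r was -0.64 without the 2 farthest. The adjusted permutation p was 0.0298 on the CPM scale in place of log2, and 0.0851 without the 2 farthest libraries. Without the libraries marked by testis or B cell transcripts r was -0.69 and the pair did not pass. Plagl1 and H19, on different chromosomes, had r = -0.29 and rho = -0.31, and H13 and Mcts2 had r = 0.029 and rho = -0.29, with adjusted permutation p between 0.535 and 0.950. Without the 2 farthest libraries r was -0.03 for the former and -0.76 for the latter, whose adjusted permutation p was then 0.0851. Nnat and Blcap, named after their values were seen because 1 lies inside the other, had r = 0.64 and rho = 0.56 (permutation p of 0.0118 and 0.0338, adjusted 0.0856 and 0.245), and r was 0.86 without the 2 farthest libraries, with an adjusted permutation p of 0.0103. Without the marked libraries r was 0.75 and this pair did not pass.

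In liver, 0 of 10 pairs passed. The highest were H13 and Mcts2 (r = 0.50, rho = 0.46, adjusted permutation p of 0.205 and 0.296), Plagl1 and Cdkn1c (r = 0.31, rho = 0.32, adjusted 0.605 and 0.535) and Peg10 and Ppp1r9a (r = 0.17, rho = 0.24, adjusted 0.916 and 0.704). Plagl1 and Cdkn1c lie on different chromosomes. The lowest were Nap1l4 and Cd81 (r = -0.53, rho = -0.43), Trappc9 and Peg13 (r = -0.51, rho = -0.43) and Snrpn and Ndn (r = -0.24, rho = -0.34), with adjusted permutation p between 0.273 and 0.776. Without the 2 farthest libraries r was 0.17, 0.36, -0.04, -0.08, -0.57 and -0.59 in the order named, so the values of H13 with Mcts2 and of Nap1l4 with Cd81 rest on those libraries. Peg3 and Peg10 were measured at 2.48 to 6.98 and 0.527 to 5.16 CPM in liver, so that counting error is a larger part of their spread there than in eWAT.

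**Figure D5:**
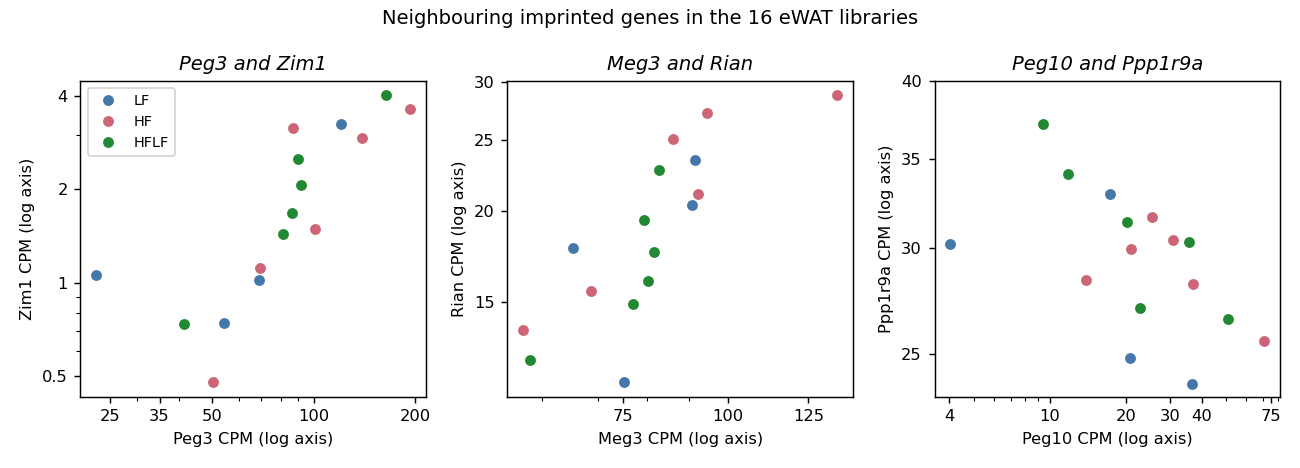
CPM of 2 neighbouring imprinted genes in each of the 16 eWAT libraries, on log axes, coloured by arm, for Peg3 and Zim1, Meg3 and Rian, and Peg10 and Ppp1r9a. The first 2 pairs rise together (r = 0.80 and 0.79 after the arm means were removed) and the last runs the other way (r = -0.69, adjusted permutation p of 0.0836).

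Other genes of the same biology were counted from 3 lists. None of the 34 other imprinted genes listed (16 measured in liver, 23 in eWAT) passed in any arm comparison by edgeR, and at an unadjusted p under 0.05 they counted 0, 1 and 1 of 16 in liver and 1, 2 and 2 of 23 in eWAT, against 3.6%, 5.47% and 1.86% and 7.04%, 10.8% and 9.3% of all genes. Gatm, the first enzyme of creatine synthesis, had the smallest p among them in eWAT, at 21.8, 24.8, 9.06 and 9.40 CPM in LF and 5.35 to 10.3 in HFLF, a log2 difference of -1.02 ± 0.25 with an adjusted p of 0.266. Its 2 high LF libraries were LF 2 and LF 3, as for H19. Between the tissues 11 of 15 passed, 8 lower and 3 higher in liver (42.9% and 42.6% of all genes), with Slc38a4, an amino acid transporter of the liver, at 10.71 ± 0.31 and Mest at -7.39 ± 0.38.

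Of 21 genes that keep imprints or methylate DNA (15 measured in liver, 19 in eWAT), 0 passed in any arm comparison by edgeR. The maintenance methyltransferase Dnmt1 stood at 35.5, 41.5, 31.1 and 38.0 CPM in the LF libraries of eWAT and at 24.1 to 29.8 in HFLF, which did not overlap (1.23% of all genes did not), a log2 difference of -0.42 ± 0.086 with an adjusted p of 0.266. Uhrf1, which guides it to replicating DNA, stood at 7.77, 9.44, 4.59 and 11.1 CPM in LF and at 1.77 to 5.98 in HFLF (-1.21 ± 0.29). Both also follow dividing cells, and the summed macrophage markers (5 of 5 measured) ran from 915 to 2035 CPM in LF, highest in LF 3, from 880 to 1791 in HF and from 591 to 1188 in HFLF. Their part in the difference was not tested.

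Of 19 genes of IGF and insulin signalling (16 measured in each tissue), 0 passed in any arm comparison by edgeR. Igfbp2, a binding protein of IGFs, stood at 2.70, 2.33, 1.79 and 1.97 CPM in the LF libraries of eWAT and at 1.94 to 30.8 (median 7.81) in HF, a log2 difference of 2.34 ± 0.77 with an adjusted p of 0.689. All HF libraries but HF 6 lay above all of LF. Igfbp2 was highest in HF 5 and lowest in HFLF 6 (0.574 CPM), where the mesothelium markers summed to 514 and 6.64 CPM. It stood at 1.94 in HF 6, where they summed to 45.2. In HF 3, where the sum was highest at 537 CPM, Igfbp2 stood at 6.11, and in LF 5, at a sum of 231, at 1.79. The part of those cells in the difference was not tested. Igfbp5 was at 0.44 ± 0.16 for HF and 0.41 ± 0.16 for HFLF against LF.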

How the data were processed

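RNA was measured by sequencing of 15 liver and 16 eWAT libraries. Per the submitters' processing notes, the aligner was STAR and the build GRCm38.p6. The counting tool, annotation and strand are unstated in the sources used. Deposited tables hold the authors' whole-number counts per gene after a CPM filter, per the file headers and values. Deposited tables of RPKM were not used. All columns matched a sample.

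Symbols, coordinates and exon lengths came from GENCODE M21. Counts were fitted with edgeR 4.0.16 in R 4.3.3 (TMM, filterByExpr, which removed 0 genes, robust quasi-likelihood, 1 term per arm over all libraries of a tissue), and p-values were adjusted by Benjamini and Hochberg over all genes, with a threshold of 0.05. SE is the absolute log2 change over the root of F. A joint fit of 31 libraries gave the tissue differences. Log2 CPM used a prior count of 2. DESeq2 1.42.0 and limma 3.58.1 were alternatives, with other scalings and filters, a replicate block and libraries left out. A count of 3, the floor, is worth 0.174 to 0.325 CPM (liver) or 0.110 to 0.323 CPM (eWAT), for counting error only. Fits were tested on simulated data.

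Members, lists and pairs were chosen with earlier results of these data known. Named members are the 5 of smallest unadjusted p in each arm comparison, the 5 largest tissue differences each way, the 5 highest per kb and the 3 highest and 3 lowest r per tissue; of other lists at most 3 genes by p. Other members named were chosen after their values were seen.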

Additional observations from a re-analysis of the deposited data

Results flagged for a closer look

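Within the arms, single libraries stood far from the rest of their group for 20 of 198 groups of a member, a tissue and an arm, by Dixon's test at the 95% level. Chance flags about 1 in 20 groups, which is 9.9 of 198. The values follow, in CPM, with the range of the other libraries of the group.

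In liver, Gnas, the stimulatory G protein subunit, stood at 7.31 in HF 5 against 30.9 to 39.4 in the other HF libraries. The same library held Igf2r at 56.9 against 44.0 to 46.1. HF 6 held Kcnq1ot1 at 9.07 against 6.07 to 6.54 and Peg13 at 12.2 against 8.89 to 9.67. In LF, Peg3 stood at 6.98 in LF 6 against 4.00 to 4.43, Sgce at 11.99 in LF 3 against 6.10 to 6.32 and Trappc9 at 16.5 in LF 3 against 19.8 to 20.2. Ube3a stood at 25.8 in HFLF 4 against 37.7 to 41.8.

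In eWAT, LF 3 held Snrpn at 12.9 against 26.5 to 27.4 and Commd1 at 31.6 against 20.3 to 21.3. LF 6 held Zim1 at 3.25 against 0.743 to 1.06 and Ube3a at 32.7 against 60.6 to 63.2, and LF 2 held Blcap at 151 against 193 to 197. In HF, Igf2 stood at 2.10 in HF 1 against 0.455 to 0.744, Dlk1 at 2.66 in HF 5 against 1.26 to 1.64 and Kcnq1ot1 at 22.8 in HF 3 against 19.05 to 20.3. In HFLF, Dlk1 stood at 2.19 in HFLF 1 against 1.03 to 1.23, Sgce at 84.3 in HFLF 3 against 106 to 118, H19 at 1.08 in HFLF 4 against 0.268 to 0.499 and Meg3 at 57.9 in HFLF 6 against 77.0 to 82.7. LF 2, LF 3, LF 6 and HF 5 of eWAT are among the libraries marked by testis or B cell transcripts.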

How the results depend on the processing

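The count of members called was 0 in each of the 6 arm comparisons and both tissue-by-arm tests under every alternative run. Over all genes, DESeq2 called 1 (HF) and 11 (HFLF) against LF in liver, and 12, 69 and 52 in eWAT (HF and HFLF against LF, HFLF against HF), where edgeR called 0. Leaving out 1 library gave 0 to 13 genes for eWAT HFLF against LF, the 13 without LF 5. Whether equal replicate numbers mark the same animal or a shared batch is not stated, and correlations over all genes cannot exclude either. Same-numbered libraries of 2 arms correlated at -0.108 to 0.403 in liver and -0.366 to 0.374 in eWAT. Of these pairs, 7 of 13 and 7 of 14 lay over 0.1, and 0 of 14 same-numbered liver and eWAT libraries matched best. Liver Igfbp1 stood at 17.7 to 33.0 CPM in libraries numbered 1 or 2 and at 53.4 to 92.7 in the others. It was named after its values were seen, and the share of all genes apart in this way was not counted. With a replicate block, 0 members and 1 gene were called for liver HFLF against LF, and 0 members in the other arm comparisons. Between the tissues this block gave 25 members against 26, and 10613 of 12735 genes against 10892. Mcts2 was then at 0.29 (adjusted p of 0.0504 in edgeR), and liver Ppp1r9a for HFLF against LF was -0.22. Requiring an absolute log2 difference over 1 in the main fit left 16 of 28 members, and 5067 of 12735 genes. By limma voom H19 in eWAT was -0.85 for HF and -1.47 for HFLF against LF. With library totals only, Commd1 (-0.085) and Mcts2 (-0.40) turned lower in liver, Inpp5f (0.062) lost its call, and the member median for eWAT HFLF against HF was -0.05. Without the eWAT libraries high in testis or B cell transcripts 1 pair passed instead of 2. Of 623 alternative values of the named members, 619 held their direction and side of the threshold, whatever their size. No arm value passed in any setting, so for those this count reports direction alone. The setting without a filter repeats the main fit, since filterByExpr removed 0 genes. Among the ranked members, a required mean of 1 CPM left Plagl1 and Ndn in liver and Zdbf2 in eWAT without a value. Fits of only the 2 arms compared did so in eWAT for Zdbf2 (HFLF against HF) and H19 (HFLF against LF). Most of these members were named for a small p or a large difference in the same data. Depth limits Ndn, Plagl1, Peg10, Cdkn1c and Meg3 in liver, whose lowest libraries held 1, 5, 6, 7 and 8 reads. In eWAT it limits Zdbf2, H19, Igf2, Zim1 and Mirg, at 1, 2, 4, 6 and 9 reads.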
